A study of Caenorhabditis elegans with 58 samples.

Results

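Small RNAs of the nematode Caenorhabditis elegans were assigned to mature microRNA (miRNA) arms, in a strain whose mir-35 gene carries the edit labelled seed_rev_no_bulge. The comparison used 6 libraries of this strain, replicates 1 to 3 of embryos and of first-stage larvae (L1), and 6 wild-type libraries, replicates 4 to 6 of both stages. These are 12 of the 42 libraries made from edited strains and wild type and of 58 libraries in all. The edited strain is MCJ211 with the genotype mir-35(cdb2 cdb 95), and the wild type is N2. The label is read here as a reversed seed without a bulge, whose position the labels do not give. All samples were whole hermaphrodite animals. Adults from bulk liquid cultures were bleached, and their embryos were taken as they were or left to hatch overnight in buffer with no food, which gave starved L1. The labels do not give the age of the embryos. A single strain carries the edit, so an effect of the edit and of anything else in which the strain differs from N2 cannot be told apart.

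A miRNA is cut from a hairpin as a guide strand, which is loaded into an Argonaute protein and finds its targets through the seed near its 5′ end, and a passenger strand, which is mostly lost. The mir-35 family of C. elegans is made of mir-35 to mir-42, which share a seed, are abundant in embryos, act redundantly in embryonic development and drop sharply around hatching. Earlier work in this animal tied that drop to the family's seed and to the ubiquitin ligase substrate receptor EBAX-1. In the annotation, mir-35 to mir-41 are neighbouring miRNA genes on chromosome II, and mir-42 lies elsewhere on the same chromosome. The question put to these libraries was how much mir-35 with the edited seed is present at each stage, how much is left in L1, and what else differs.

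Total miRNA counts ranged from 3703310 to 15749588 per library. Levels are given as counts per 1000000 miRNA counts (CPM), scaled with TMM factors, which ranged from 0.73 to 1.24. The ratio of spike-in to miRNA counts ran from 0.0941 to 0.476, and the strain's embryo library 2 stood apart from the strain's other embryos, at 0.0968 against 0.476 and 0.355. Wild-type L1 libraries 4, 5 and 6 also spread, at 0.141, 0.0941 and 0.380. The labels were checked with the lines of the table that list the edited sequences, by plain library totals. The passenger line of seed_rev_no_bulge had 325 to 346 CPM in the strain's 3 embryo libraries and at most 3.09 CPM in the 18 embryo libraries of the other strains and wild type. This line therefore sets the strain's embryos apart from those of every other strain, seed_rev included. In L1 it held 5.22 to 10.2 CPM in the strain and up to 4.44 CPM elsewhere, a narrow margin. The guide line of seed_rev_no_bulge had 6690 to 13174 CPM in the strain's L1, and up to 747 CPM in the L1 of strains that do not carry a reversed seed.

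The mir-35 guide is listed in 1 line for seed_rev_no_bulge and in another for seed_rev, and in the 12 libraries of these strains both lines held nearly the same counts. The lines were therefore joined for the guide. Whether a read stands in 1 line or in both cannot be told from the table. If in both, the joined level is too high by a factor that is nearly the same in embryos and L1. Levels, shares and ranks of the guide are from the joined lines unless the own line is named, and values from the strain's own line alone follow each of them. For both mir-35 arms, strain and wild type are read from lines of different sequences. Whether these are counted equally well was not tested. The passenger was taken from the strain's own line, because the line of the seed_rev passenger held 14.5 to 89.6 CPM in the strain's L1 by plain totals. This lay within the 8.22 to 105.7 CPM range of the other L1 libraries, those of seed_rev left out.

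With the lines joined, the edited mir-35 guide in L1 stood above the wild-type guide in every library, and in embryos the groups overlapped. From the strain's own line alone, the groups overlapped in L1. In embryos each strain library then lay below wild-type embryos 4 to 6, but not below wild-type embryo 3. In L1 the guide had 26698, 19133 and 11655 CPM in seed_rev_no_bulge L1, against 2272, 1476 and 7344 CPM in wild-type L1. The lowest strain library lay above the highest wild-type library, and wild-type L1 6 was the highest of its group. From the own line, strain L1 had 13883, 9295 and 5762 CPM, and strain L1 3 lay below wild-type L1 6. With the lines joined, the difference was 2.37 on the log2 scale (SE 0.61), a 5.18-fold higher level with a 95% interval of 2.19 to 12.3, and it did not pass adjustment over 229 arms (unadjusted p = 4.4e-04, edgeR quasi-likelihood adjusted p = 0.101). The same difference passed with DESeq2 (2.45, adjusted p = 0.00819), against all 6 wild-type L1 libraries in edgeR (2.24, adjusted p = 0.00993), and without wild-type L1 6 in edgeR (3.55, adjusted p = 0.00459). It also passed in edgeR when strain embryo 1, wild-type embryo 5 or wild-type embryo 6 was left out (adjusted p = 0.0358, 0.0410 and 0.0447). It did not pass in edgeR with RLE factors, library totals or spike-in scaling in place of TMM. Nor did it pass without the filter, with the 12 compared libraries alone, or with any other of these libraries left out. From the strain's own line alone it was 1.50 (edgeR adjusted p = 0.777). Over single libraries, the exact 2-sided permutation test of log2 CPM against all 6 wild-type L1 libraries gave p = 0.0119 for a difference of 2.55, the smallest that its 84 splits allow. Against wild-type L1 4 to 6 alone, the 20 splits of the exact permutation test cannot go below p = 0.1.

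In embryos, the guide had 180447, 117467 and 88078 CPM in seed_rev_no_bulge and 242442, 183196 and 138974 CPM in wild type. The ranges overlapped, and the strain's highest library lay below the highest of wild type. From the own line, strain embryos had 95940, 56905 and 44820 CPM, all below the lowest wild-type embryo. With the lines joined, the difference was -0.55 (SE 0.59, edgeR quasi-likelihood adjusted p = 0.999), with a 95% interval of 0.300 to 1.56 for the ratio. From the strain's own line alone it was -1.42 (edgeR adjusted p = 0.997).

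As a share of all miRNA counts, the edited guide made up 13.7, 10.3 and 9.42% in strain embryos, and the wild-type guide 18.5, 13.3 and 11.6% in wild-type embryos. Its rank among all arms was 1, 1 and 3 in both groups. In L1 the share was 2.57, 1.77 and 1.36% in the strain and 0.282, 0.178 and 0.724% in wild type, with ranks of 12, 18 and 20 in the strain and 34, 36 and 24 in wild type. From the own line, the share was 7.28, 4.99 and 4.79% in strain embryos, with ranks of 3, 8 and 6, and 1.33, 0.859 and 0.674% in strain L1, with ranks of 19, 23 and 23. Within the 8 family guides, mir-35 took 71.9, 78.2 and 54.7% in strain L1, against 28.4, 24.3 and 38.1% in wild-type L1. In embryos its part of the family was 40.1, 34.0 and 28.1% in the strain and 42.7, 42.4 and 32.1% in wild type. From the own line, it took 56.8, 63.4 and 37.2% in strain L1 and 24.9, 19.1 and 15.9% in strain embryos. The edited mir-35 thus held more counts than the other 7 family guides together in all 3 strain L1 libraries with the lines joined. From the own line it did so in strain L1 1 and 2 but not in strain L1 3, where it had 36881 counts against 62153 for the other 7. The whole family stood at 3.57, 2.26 and 2.49% of miRNA counts in strain L1 and 0.993, 0.735 and 1.90% in wild-type L1, and from the own line at 2.35, 1.36 and 1.81% in strain L1, which overlaps wild type. The other 7 guides alone overlapped, with 1.00, 0.492 and 1.13% in strain L1 and 0.711, 0.557 and 1.18% in wild-type L1.

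**Figure D1:**
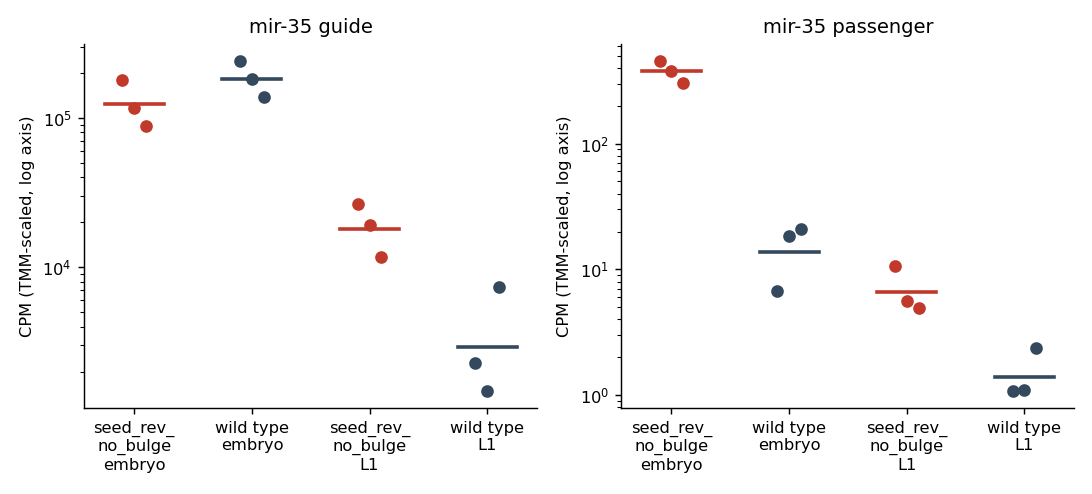
TMM-scaled CPM on log axes of the mir-35 guide (left, lines joined) and passenger (right) in each library of seed_rev_no_bulge and wild type, in embryos and L1; points are libraries and bars the geometric means of 3. The guide groups overlap in embryos and not in L1, while the passenger lies higher in the strain in embryos, at 304 to 457 CPM against 6.70 to 21.1 CPM.

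Within the strain, the edited guide fell between embryo and L1, and the part left was larger in each strain pair than in each wild-type pair. By library pairs of the same number, L1 held 14.8, 16.3 and 13.2% of the embryo level in seed_rev_no_bulge, against 0.937, 0.806 and 5.28% in wild type 4 to 6. The labels do not say that libraries with the same number came from the same culture. The lowest strain pair lay above the highest wild-type pair. From the own line the strain pairs kept 14.5, 16.3 and 12.9%, also above. The fall was -2.75 in the strain (SE 0.62, edgeR quasi-likelihood adjusted p = 5.7e-04, lower in 3 of 3 libraries), which leaves 14.9% with a 95% interval of 6.20 to 35.8%. In wild type it was -5.67 (SE 0.71, edgeR quasi-likelihood adjusted p = 6.7e-08, lower in 3 of 3 libraries), which leaves 1.96% with an interval of 0.720 to 5.36%.

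The difference between the changes was 2.92 (SE 0.84, 95% interval 1.21 to 4.63), a 7.58-fold larger part kept. It had the smallest unadjusted p of the 229 arms (0.00137) and did not pass adjustment (edgeR quasi-likelihood adjusted p = 0.314). With a replicate block within each strain, added after seeing the data, the difference was 3.27 and passed (edgeR adjusted p = 0.0267). Same-numbered embryo and L1 libraries deviated together in the strain (r = 0.511, 0.487 and 0.429) but unevenly in wild type (0.434, 0.061 and 0.112), so that block is not established as a pairing. From the strain's own line alone and with no block, the difference was also 2.92 (edgeR adjusted p = 0.377). Without wild-type L1 6, the library with the most mir-35 in its group, the difference was 4.00 and passed (edgeR adjusted p = 0.0150). The exact 2-sided permutation test of the log2 part kept gave 3.21 with p = 0.1 against the 3 wild-type pairs, the smallest that 20 splits allow, and 2.60 with p = 0.0238 against all 6 wild-type pairs. Wild-type pairs 1 to 3 had kept 6.55, 1.27 and 6.27%, all below the strain's lowest pair. With levels set per spike-in count, the strain pairs kept 28.9, 8.14 and 20.5% and wild-type pairs 4 to 6 kept 3.62, 4.45 and 5.92%, a difference of 1.89 (exact 2-sided permutation test, p = 0.1) that was 1.72 against all 6 wild-type pairs (p = 0.0595). Without strain embryo 2, the library with few spike-in counts, the difference in the TMM-scaled fit was 2.62 (edgeR adjusted p = 0.992). Whole animals were sampled, so fewer cells holding mir-35 and less mir-35 per cell cannot be told apart.

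The strain's mir-35 passenger was the arm that set its embryos apart from wild type. It had 457, 379 and 304 CPM in seed_rev_no_bulge embryos, from 1283, 3581 and 2178.5 counts, and 6.70, 18.6 and 21.1 CPM in wild-type embryos, from 33, 140 and 82 counts. The groups did not overlap, and the difference of 4.62 (SE 0.71, edgeR quasi-likelihood adjusted p = 2.9e-05, higher in 3 of 3 libraries) is a 24.5-fold higher level with a 95% interval of 9.08 to 66.4. The passenger was the single arm of 229 that passed in embryos, 0.437% of those tested, and 1 arm had an unadjusted p under 0.05. The wild-type passenger line is close to its background, since it held 5.11 to 25.7 CPM by plain totals in the 6 wild-type embryo libraries and up to 4.86 CPM in the edited strains, which lack that sequence.

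Per 1000000 guide counts, the passenger stood at 2532, 3224 and 3447 in strain embryos, against 27.6, 101 and 152 in wild-type embryos. In L1 the ratios overlapped, at 397, 295 and 426 in the strain and 472, 747 and 321 in wild type. With the guide from the own line, the ratios were 5116, 7049 and 7120 in strain embryos and 774, 613 and 868 in strain L1, where they still overlapped wild type. Strain L1 libraries held 81, 50 and 32 passenger counts, or 10.6, 5.64 and 4.96 CPM, and wild-type L1 libraries 21, 18 and 12 counts, or 1.07, 1.10 and 2.36 CPM. By plain totals the wild-type passenger line held 1.08 to 2.92 CPM in wild-type L1 and up to 6.54 CPM in the L1 of edited strains, so the wild-type L1 level is not told apart from background. The L1 difference was 2.31 (edgeR quasi-likelihood adjusted p = 0.210), and it passed with DESeq2 (2.41, adjusted p = 0.0413) and against all 6 wild-type libraries (2.23, edgeR adjusted p = 0.0175).

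The passenger fell by 5.74 on the log2 scale from strain embryos to strain L1 (SE 0.75, edgeR quasi-likelihood adjusted p = 1.4e-07, lower in 3 of 3 libraries), with 1.87% left, while the guide of the same hairpin kept 14.9%. Pair by pair, the strain's passenger kept 2.32, 1.49 and 1.64%. By plain totals its line held 5.22 to 10.2 CPM in strain L1 and up to 4.44 CPM in the L1 of other groups. The part left in the strain is therefore also near background. In wild type the passenger change was -3.43 (edgeR quasi-likelihood adjusted p = 1.5e-04), with 9.27% left by the fit, and since the line was at its background in wild-type L1, this part is not told apart from it. The difference between the changes was -2.31 (unadjusted p = 0.0168, edgeR quasi-likelihood adjusted p = 0.981).

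None of the guides of the 7 family members that were not edited passed between the strains in embryos, in L1 or in the difference of the changes. All 7 fell to L1 in both strains. Their mean log2 difference between strain and wild type was -0.21 (SD 0.28 over the 7 guides) in embryos and 0.23 (SD 0.24) in L1. From embryo to L1 they changed by a mean of -4.75 (SD 1.26) in the strain and -5.18 (SD 1.15) in wild type. The difference of the changes averaged 0.44 (SD 0.33) and ran from -0.14 for mir-38 to 0.89 for mir-41, beside 2.92 for mir-35.

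Single guides show how alike the strains were. The guide of mir-37, the most abundant of the 7 on average, had 3641, 1368 and 4015 CPM in strain L1 and 1618, 1205 and 5586 CPM in wild-type L1. The guide of mir-39 had 3820, 2086 and 3113 CPM in strain L1 and 2496, 2104 and 3419 CPM in wild-type L1. Both sets overlapped, and wild-type L1 6 was again the highest wild-type library. The guide of mir-36 fell by 5.86 in the strain (SE 0.53) and by 6.13 in wild type (SE 0.54), with edgeR quasi-likelihood adjusted p-values of 7.0e-11 and 1.5e-11. The smallest fall of the 7 was that of mir-42, the member outside the gene cluster, at -2.41 in the strain (edgeR quasi-likelihood adjusted p = 7.3e-06) and -2.84 in wild type (adjusted p = 6.6e-07). By pairs, mir-42 kept 17.3 to 20.4% in the strain and 9.71 to 18.3% in wild type. The edited mir-35 guide, at 13.2 to 16.3%, lay between mir-42 and the guides of mir-36 to mir-41, which kept 0.528 to 9.40% in the strain. In strain pair 3, mir-35 kept 13.2%, beside 9.40% for mir-40 and 20.4% for mir-42.

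**Figure D2:**
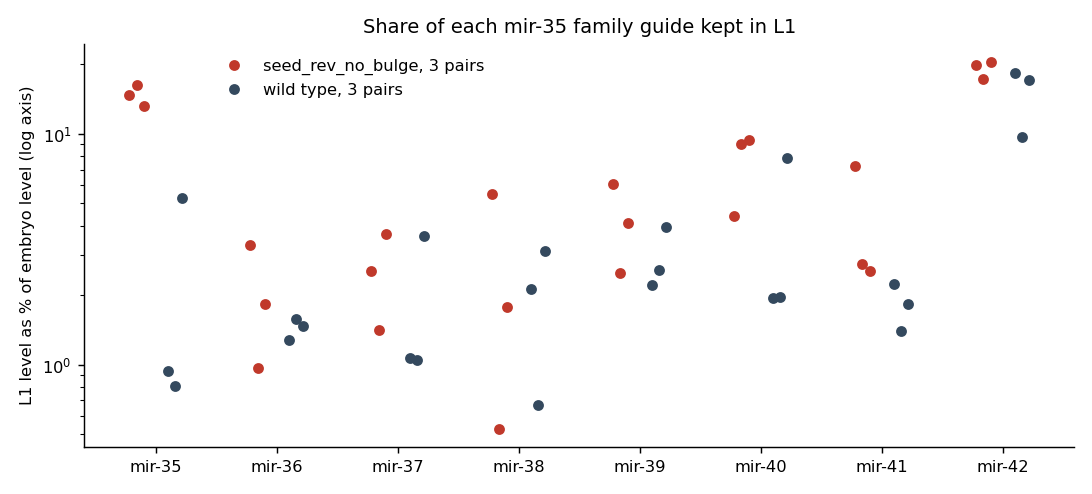
L1 level of each family guide as a percent of its embryo level (log axis) by library pair, with the mir-35 lines joined, for 3 pairs of seed_rev_no_bulge and wild-type pairs 4 to 6. The strain and wild-type points overlap for each unedited member but mir-41, while for mir-35 the strain's 13.2 to 16.3% lie above the wild-type pairs, of which the highest is 5.28%.

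The passengers of the 7 unedited members, mir-36_5p* to mir-42_5p*, lay on the higher side in strain L1, though none passed. Their log2 differences from wild-type L1 were 0.49 to 1.56 with a mean of 1.21, positive for 7 of 7, against a median of -0.01 over all 229 arms. For none of the 7 were the L1 groups free of overlap. The largest, mir-39_5p*, had 364, 56.5 and 168 CPM in strain L1 and 35.2, 29.6 and 135 CPM in wild-type L1 (1.56, unadjusted p = 0.0392, edgeR quasi-likelihood adjusted p = 0.751). As a share of guide and passenger counts together, the 7 passengers made up 15.3, 8.32 and 9.45% in strain L1 and 4.70, 4.67 and 7.26% in wild-type L1. These shares did not overlap, and in embryos they did, at 1.13, 0.874 and 1.60% in the strain and 0.374, 2.00 and 1.18% in wild type. The members come from neighbouring genes in the same libraries and are not separate replicates.

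From embryo to L1, 4 of these 7 passengers passed as lower in the strain and 6 of 7 in wild type, beside 7 of 7 guides in each. Of all 229 arms, 24% passed as lower in the strain and 25.3% in wild type. Among arms named with an asterisk, 34 of 92 did so in each. The strain's calls of mir-39_5p* and mir-41_5p* were near the threshold (-1.88 and -1.68, edgeR quasi-likelihood adjusted p = 0.0370 and 0.0447) and were lost under 14 and 17 of 22 alternative settings. Among these were 9 and 10 of the 12 settings that leave out a library, all but those without strain L1 1 or wild-type embryo 5 and, for mir-39_5p*, strain embryo 1. Those of mir-37_5p* (-2.17) and mir-38_5p* (-2.12) were lost without strain L1 2 (edgeR adjusted p = 0.117 and 0.157) or strain embryo 3 (0.0706 and 0.125), and that of mir-38_5p* also without strain L1 3 (0.0781). The difference of the changes averaged 1.34 (SD 0.51), positive for 7 of 7, with none passed.

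**Figure D3:**
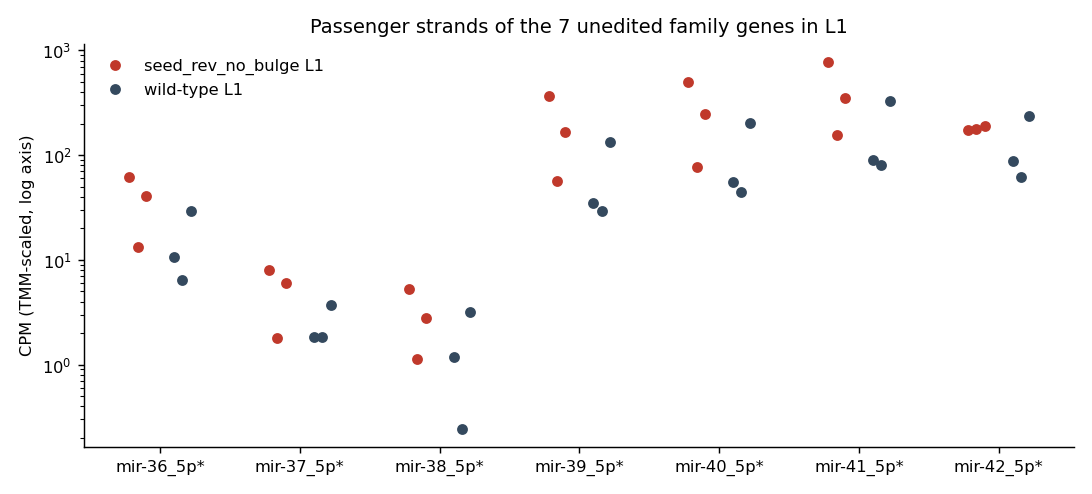
TMM-scaled CPM (log axis) of the passenger strands of the 7 unedited family members in the 3 seed_rev_no_bulge L1 and 3 wild-type L1 libraries; points are libraries. The strain's points reach higher for most members, but the groups overlap for all 7, as with mir-39_5p* at 56.5 to 364 CPM in the strain and 29.6 to 135 CPM in wild type.

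Outside the family, none of 213 arms passed between the strains at either stage (edgeR; 0 in embryos and 6 in L1 had an unadjusted p under 0.05, and DESeq2 called 0 of them). Over all 229 arms, the family included, no arm passed in L1 (0% of 229; 9 had an unadjusted p under 0.05, 3.93%, and DESeq2 called 2, both of them mir-35 arms). In embryos the groups did not overlap for 3 arms (1.31%), and in L1 for 19 (8.3%), 9 higher (3.93%) and 10 lower (4.37%). Outside the family these were 2 arms in embryos and 17 in L1. In the difference of the changes no arm passed (0%; 4 had an unadjusted p under 0.05, 1.75%, and DESeq2 called 0).

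Arms outside the family that had the smallest unadjusted p on each side, among those whose mean log2 CPM reached 5, are given as values. In embryos, with a pair from each side, mir-785 was at -0.71 (unadjusted p = 0.0526), mir-81 of the mir-58 family at -1.18 (0.0951), mir-231 at 0.77 (0.234) and mir-50 at 0.43 (0.250), each with an edgeR quasi-likelihood adjusted p of 0.999. The value of mir-81 rests on wild-type embryo 5, which had 74544 CPM, beside 6010 and 8693 CPM in the other wild-type embryos and 14170, 11644 and 13586 CPM in strain embryos. Without that library it was 1.05 in embryos and -0.08 in the difference of the changes, and did not pass in either (edgeR adjusted p = 0.943 and 0.998). In L1 the 5 leading arms on the higher side were family members, both mir-35 arms and the passengers of mir-39, mir-41 and mir-36, so those named here are the 5 on the lower side. Of these, mir-86 was at -0.93 (unadjusted p = 0.0476, edgeR quasi-likelihood adjusted p = 0.751), with 1261, 1322 and 1919 CPM in the strain and 3916, 2220 and 2442 CPM in wild type. These groups did not overlap. On the same side, mir-60 was at -1.20, mir-788_5p* at -0.80, mir-4813_3p at -0.81 and mir-250 at -0.99, all with an edgeR quasi-likelihood adjusted p of 0.751. In the difference of the changes, mir-81 was at 2.19, mir-231 at -1.73, mir-244 at -2.32, mir-250 at -1.19 and mir-233 at -0.67, each with an edgeR quasi-likelihood adjusted p of 0.981.

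**Figure D4:**
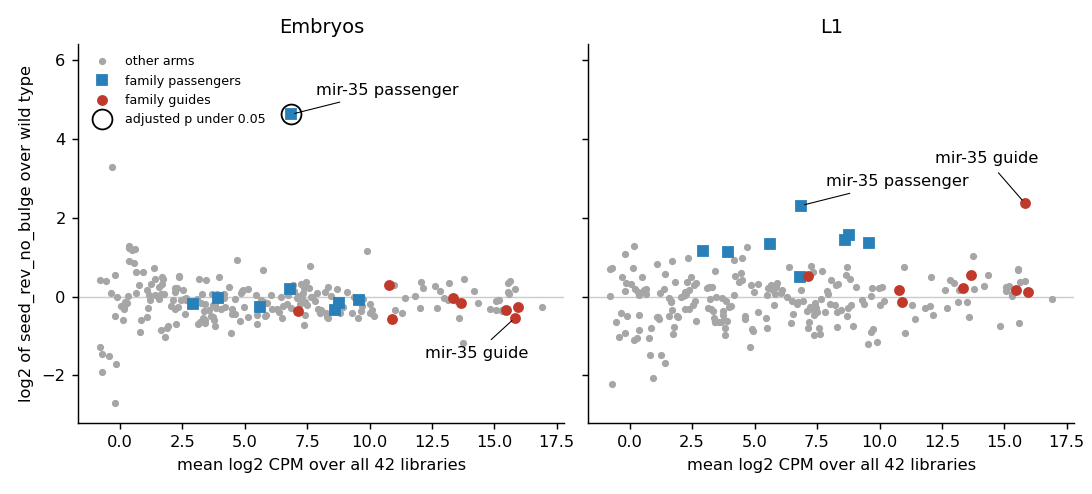
Log2 difference of seed_rev_no_bulge over wild type for 229 arms against their mean log2 CPM, in embryos (left) and L1 (right); the ring marks the arm with an adjusted p under 0.05. In embryos the mir-35 passenger is the highest point, at 4.62, followed by mir-77_5p* at 3.29, which did not pass. In L1 the mir-35 guide (2.37) and passenger (2.31) are the highest points, with the other family passengers between 0.49 and 1.56.

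With TMM scaling, most arms that changed from embryo to L1 in seed_rev_no_bulge also changed in the same direction in wild type. In the strain 95 of 229 arms changed (41.5%), 40 higher (17.5%) and 55 lower (24%) in L1. In wild type 99 changed (43.2%), 41 higher (17.9%) and 58 lower (25.3%), or 37 lower without wild-type L1 5. Of these calls 84 were shared in the same direction, 38 higher and 46 lower, and 0 were opposite. Under spike-in scaling the counts parted, at 15 higher and 22 lower in the strain and 67 higher and 13 lower in wild type. With TMM scaling the shared calls were 88.4% of the strain's and 84.8% of wild type's. Across the 229 arms the changes of strain and wild type had a Pearson r of 0.905 and a Spearman rho of 0.899, a description in which the arms share libraries and scaling and are not independent.

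Among arms whose mean log2 CPM reached 5, the largest rise in the strain was that of mir-71, a miRNA that promotes survival of starved L1 in C. elegans. It had 235587, 107195 and 114547 CPM in strain L1 and 24155, 1097 and 2850 CPM in strain embryos. The groups did not overlap, and embryo 1 stood well above embryos 2 and 3. The change was 4.02 (SE 0.85, edgeR quasi-likelihood adjusted p = 2.5e-04) in the strain and 3.82 (adjusted p = 3.4e-04) in wild type. The passenger mir-71_3p* rose by 2.39 in the strain and by 2.31 in wild type.

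Other rises in the strain were those of mir-34_5p* (3.89), mir-230 (3.78), mir-237 (3.21), mir-84 (2.83), mir-238 (2.44), mir-63 (2.43), mir-232_5p* (2.25) and mir-239a_3p* (2.13), with edgeR quasi-likelihood adjusted p-values up to 0.00634. Of these, mir-34_5p* had 265, 400 and 153 CPM in strain L1 and 33.5, 10.8 and 11.6 CPM in strain embryos, and mir-238 had 11781, 11448 and 9901 CPM in strain L1 and 2851, 2292 and 971 CPM in strain embryos. The stage groups overlapped for neither.

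The largest falls in the strain were those of family members. The guides of mir-38 (-6.18), mir-36 (-5.86), mir-37 (-5.27), mir-41 (-4.88), mir-39 (-4.62) and mir-40 (-4.01) and the mir-35 passenger (-5.74) held 7 of the 10 leading places, with edgeR quasi-likelihood adjusted p-values up to 1.8e-05. The others were mir-4813_5p (-4.58), mir-52_3p* (-3.73) and mir-244 (-3.29). The first of these had 60.2, 6.77 and 23.1 CPM in strain L1 and 1202, 345 and 601 CPM in strain embryos, without overlap. The fall of mir-244 rests on strain embryo 2, which had 4164 CPM beside 138 and 801 CPM in the other strain embryos and 68.7, 346 and 108 CPM in strain L1. Without that library it was -1.75 (edgeR adjusted p = 0.217), and it was also lost without strain L1 1 (adjusted p = 0.0717) or strain L1 3 (0.0606).

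**Figure D5:**
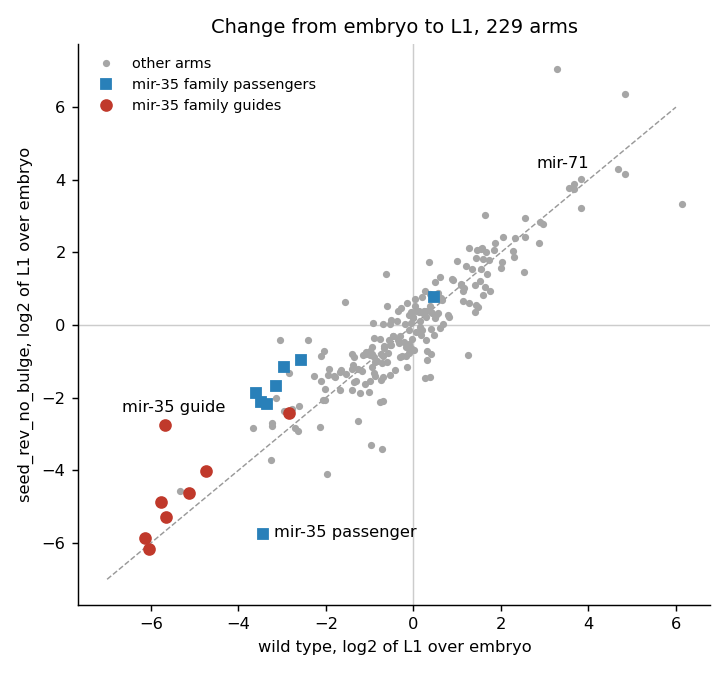
Log2 change from embryo to L1 of 229 arms in seed_rev_no_bulge (vertical axis) against wild type (horizontal axis); the dashed line marks equal change. Most arms lie along the line, the mir-35 guide lies above it (-2.75 in the strain, -5.67 in wild type) and the mir-35 passenger below it (-5.74 and -3.43).

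Other miRNA families were counted from lists. Of the let-7 family with lin-4, timers of larval development, 8 members were measured. From embryo to L1, 5 passed as higher and 1 as lower in the strain, against 5 and 2 in wild type. The shares of all 229 arms were 17.5% higher and 24% lower in the strain, and 17.9% and 25.3% in wild type. The median change of the 8 members was 2.34 in the strain and 1.52 in wild type, beside -0.37 and -0.17 over all arms. In the strain, lin-4 rose by 3.02 (edgeR quasi-likelihood adjusted p = 4.2e-04) from low levels, with 5.24, 10.4 and 3.72 CPM in L1 and 0.356, 0.846 and 0.976 CPM in embryos, and mir-794 by 3.74 (adjusted p = 1.0e-04). By contrast mir-48 fell by 1.22 in the strain (edgeR quasi-likelihood adjusted p = 0.00643; 0.0603 without strain L1 3), and let-7 itself was at -0.36 (adjusted p = 0.741).

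Of the other lists, the mir-51, mir-64, mir-44 and mir-2 families had 6, 5, 4 and 4 members measured. Each family had 1 member that passed as lower in the strain, and the mir-64 family also 1 as higher. These counts are near the share of all 229 arms, of which 24% passed as lower and 17.5% as higher in the strain. The counts in wild type were the same. These members were mir-51 (-1.36; edgeR quasi-likelihood adjusted p = 0.00486, and 0.0568 without strain L1 3), mir-65 (-1.30), mir-247 (-1.22) and mir-43 (-1.87), and mir-63 among the rises above. The call of mir-247 (edgeR quasi-likelihood adjusted p = 0.0430) was lost under 16 of 22 alternative settings, among them 9 of the 12 that leave out a library, all but those without strain embryo 1, wild-type embryo 5 or wild-type L1 5. Under spike-in scaling the wild-type values of mir-65, mir-247 and mir-43 turned positive. None of the 5 measured members of the mir-58 family passed in the strain, against 2 lower in wild type, mir-82 and mir-2209a. In wild type 25.3% of all 229 arms passed as lower. Both wild-type calls were lost under 15 of 22 alternative settings, 9 of them among the 12 that leave out a library, and both values turned positive under spike-in scaling. None of the 3 tissue markers passed from embryo to L1 in either strain. In the strain, mir-1 of muscle changed by 0.02, and the neuronal mir-124 and lsy-6 by -0.08 and -0.55. Between the strains in L1, mir-1 had 157119, 71627 and 143780 CPM in strain L1 and 115944, 97598 and 174999 CPM in wild-type L1. In that comparison mir-124 and lsy-6 were at -0.61 and -0.20.

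Of 7 arms of 6 miRNAs tied to EBAX-1 in earlier work, mir-43 and mir-247 passed as lower and mir-243 as higher (2.10, edgeR quasi-likelihood adjusted p = 0.00729) from embryo to L1 in the strain, while wild type had 2 higher and 3 lower. The strain's counts in this list are near the shares of all 229 arms, 24% lower and 17.5% higher in the strain. In wild type these shares were 25.3% and 17.9%. The call of mir-243 in the strain was lost without strain L1 1, strain embryo 2 or strain embryo 3 (edgeR adjusted p = 0.0628, 0.0685 and 0.0701). Of the wild-type calls, mir-788 was lost under 17 of 22 alternative settings, mir-43 under 14 and mir-243 under 4, of which 10, 7 and 4 leave out a library. Between the strains, no member of any list other than the mir-35 passenger passed at either stage or in the difference of the changes. The 4 members of the mir-2 family were all on the lower side in strain L1, from -1.29 for mir-43 to -0.43 for mir-797 with a median of -0.86, and none passed.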

How the data were processed

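Total RNA of whole animals was made into small-RNA libraries with a commercial kit, per the labels' protocols. Estimated counts, unscaled, are what the authors deposited, in a table of 276 miRNA arms, 10 spike-ins and 10 lines of edited mir-35 alleles. Of its values in the 42 libraries, 496 end in 0.5, which no source explains, and all were rounded before the fit. The submitters' processing notes name HTSeq 0.13.5, SAMtools 1.13, Bowtie2 2.4.4, cutadapt 3.4 and DESeq2. A genome build was not given in the sources used here. No coordinates are printed, and names and neighbours of genes come from the WBcel235 annotation.

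All arms were tested in 1 fit of the 42 libraries with edgeR 4.0.16 (robust quasi-likelihood) in R 4.3.3, with wild-type replicates 1 to 3 and 4 to 6 of a stage as separate groups, TMM factors and no covariate. The filter was filterByExpr with a minimum count of 10 and a minimum total of 15. P-values were adjusted by Benjamini-Hochberg over the 229 arms kept, at a threshold of 0.05. The biological coefficient of variation was 0.448. Exact permutation tests were 2-sided. The script was tested on simulated data. DESeq2 1.42.0, other scalings, no filter, replicate blocks, other sets of libraries, the strain's own allele line alone and each library left out were alternatives. Figures were drawn with Python 3.11.15 and matplotlib 3.10.9.

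The guide lines of the seed-reversed alleles were joined where their ratio lay between 0.5 and 2 in all 12 libraries of these strains, and lines of alleles a strain does not carry were left out. Named arms were the mir-35 family, up to 10 rises and 10 falls with the largest change past the threshold and a mean log2 CPM of at least 5, the 5 highest and 5 lowest by unadjusted p where fewer than 5 passed (some of which are named), and members of the lists. The members and lists were chosen with earlier results of these data known. The lists were the guides and passengers of the mir-35 family, lin-4 with the let-7 family, the mir-2, mir-44, mir-51, mir-58 and mir-64 families, tissue markers, miRNAs tied to EBAX-1, and mir-71 as a marker of starvation. Values of mir-44 and mir-45 are uncertain because their reads are shared. Replicates differed by more than counting error (chi-square per degree of freedom at least 1120), and nothing in the labels says that they came from separate cultures, so p-values measure the spread between these libraries, which may be technical. Embryo and L1 libraries of the strain with the same number deviated together across the arms (r = 0.511, 0.487 and 0.429), while those of wild type did so less evenly (0.434, 0.061 and 0.112). There were no molecular identifiers.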

Additional observations from a re-analysis of the deposited data

How the results depend on the processing

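None of the strain's 95 changed arms took the other sign under 22 alternative settings (93 of them had a value with the 12 compared libraries alone), and of wild type's 99, 16 did so under spike-in scaling, none of them past the threshold, and 0 under the others. Apart from the mir-35 arms, 192 values were recomputed, and of the outcomes 3896 kept their direction and their side of the threshold, 156 lost a call, 46 gained one, 67 moved without a call and 8 reversed. The 8 named reversals were wild-type changes under spike-in scaling, which moved the median of all arms by 1.76 in that comparison: mir-82 was 0.68, mir-2209a 0.26, mir-65 0.13, mir-44 1.58, mir-45 1.52, mir-247 0.20, mir-43 0.62 and mir-788 0.78. Of these, mir-44 and mir-45, which are not among the 99, passed as higher under that scaling (edgeR adjusted p = 0.0233 and 0.0254). Spike-in scaling moved the median by 0.91 in embryos, -0.94 in L1, -0.09 in the strain's change and -1.91 in the difference. It gave 15 arms higher and 22 lower in the strain's change and 67 higher and 13 lower in wild type's, lost 14 of 33 named calls in the strain's change, put the guide in embryos at 0.31, and took the wild-type passenger change to -1.86 (edgeR adjusted p = 0.0522). The cause was not tested. Wild type had 38 arms lower with library totals, 35 with the 12 compared libraries alone, and 37 to 56 with each library left out. In L1, DESeq2 called 2 arms higher, the replicate block by identifier order 1, all 6 wild-type libraries 2, and fits without 1 library 0 to 1. The guide in L1 was 2.45 with DESeq2, 2.44 with the replicate block by identifier order (edgeR adjusted p = 0.0227), 2.24 against all 6 wild-type libraries and 2.07 to 3.55 without 1 library. The passenger in L1 was 2.41 with DESeq2 and 2.23 against all 6. In the difference of the changes, the replicate block within each strain, added after seeing the data, called 1 arm, the mir-35 guide, at 3.27 (edgeR adjusted p = 0.0267). With the replicate block by identifier order it was 2.99 (adjusted p = 0.0778), and without 1 library 2.38 to 4.00, with 0 to 1 arms called. Same-numbered libraries of strain and wild type did not deviate together throughout (r = -0.417, 0.637 and 0.147 in L1), so the block by identifier order, which sets strain libraries 1 to 3 beside wild-type libraries 4 to 6 and matches no batch named in the labels, is not a pairing of the design. The blocks changed no other call of the mir-35 arms. The log2 part kept differed by 2.60 against all 6 wild-type pairs (exact permutation test, p = 0.0238) and by 2.73 to 4.08 without 1 library. Arms with few counts, such as the wild-type mir-35 passenger in L1 at 12 to 21 counts, limit what could be told apart.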

Other observations

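One arm outside the family changed in opposite directions in every pair, and it was chosen after its values were seen. The passenger mir-250_5p* had pair values of 0.25, 0.78 and 0.28 on the log2 scale of L1 over embryo in seed_rev_no_bulge, against -0.41, -1.10 and -0.12 in wild type. The difference of 1.14 (SE 0.69) did not pass (edgeR quasi-likelihood adjusted p = 0.981).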
